A study of Rattus norvegicus with 12 samples.

Results

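Transcripts of 9 hormone receptors were followed in the cervix of 12 Sprague Dawley rats on Agilent 1-colour arrays. The receptors are those for estrogen (Esr1 and Esr2), progesterone (Pgr), glucocorticoid (Nr3c1), mineralocorticoid (Nr3c2), oxytocin (Oxtr), relaxin (Rxfp1), prolactin (Prlr) and growth hormone (Ghr). They were chosen by name: a probe belonged to the set where the array files gave it 1 of these gene names, which held for 13 of 30367 probes and 9 of 26572 gene names. The cervix came from pregnant rats on day 21 postbreeding (D21), the day before birth is due, and from nonpregnant (NP) rats in proestrus. Every cervix was flushed of blood by perfusion, minced and dispersed with collagenase before freezing. In 3 rats of each state the dispersed cells were frozen as they were (whole cervix), and in 3 other rats of each state macrophages (Mφs) were first drawn off with the ED1 antibody and magnetic beads (Mφ-depleted cervix). The whole cervix cells had no bead step, so removal of Mφs and passage through the bead procedure cannot be told apart. All 12 arrays hold different rats, and a group is 3 rats.

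The steroid receptors are transcription factors of the nuclear receptor superfamily, which bind hormone in the cell and then act on DNA. In the cervix, estrogen and progesterone are known to govern growth of epithelium and stroma and the softening that precedes birth. Relaxin, made by the ovary in the pregnant rat, acts on a G protein-coupled receptor, Rxfp1, and is known for loosening cervical connective tissue. Oxytocin acts on another G protein-coupled receptor, which makes smooth muscle contract. The receptors for prolactin and growth hormone belong to the cytokine receptor family and signal through Jak kinases and Stat factors.

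The array read each receptor through 60-base probes, and 6 of the 9 genes had 1 probe. Ghr had 3, and Nr3c1 and Nr3c2 had 2 each. The probes of the receptors that the results below turn on are shown here in lower case, 5′ to 3′, since each value rests on those letters alone. Capitals mark a stop codon that closes an otherwise open reading frame in the last 3 bases of a probe, which held for 4 of the 13 probes. The reading frames were read from the probe letters, and positions are those in the array files, in the rn4 build.
Rxfp1, chr2:171044633-171044692, minus strand: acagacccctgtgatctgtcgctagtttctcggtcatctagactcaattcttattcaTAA
Prlr, chr2:59677666-59678170, plus strand: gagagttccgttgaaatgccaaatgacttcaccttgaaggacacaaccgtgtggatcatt
Ghr, upstream probe, chr2:52524230-52524289, minus strand: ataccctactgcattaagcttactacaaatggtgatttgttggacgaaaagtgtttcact
Ghr, probe ending on a stop codon, chr2:52497358-52497417, minus strand: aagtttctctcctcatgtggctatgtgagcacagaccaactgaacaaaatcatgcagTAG
Esr1, chr1:35660062-35660121, plus strand: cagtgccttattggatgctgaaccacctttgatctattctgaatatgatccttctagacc
Oxtr, chr4:148314115-148314174, minus strand: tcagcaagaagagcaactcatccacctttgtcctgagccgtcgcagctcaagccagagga
The Prlr probe is 60 bases long but covers 505 bases of the genome, so it was placed across a gap. The Esr1 and Prlr probes were each printed on 10 spots of an array. The SD of log2 intensity between those spots had a median of 0.17 for Esr1 and 0.22 for Prlr over the 12 arrays. It reached 0.78 for Prlr on an array where none of its spots was well above background.

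Every level below is a log2 intensity minus the log2 75th percentile for that array, so 0 is the intensity of that percentile. A level says how 1 probe compares between rats and not how 1 gene compares with another. The scanner software rated a probe as well above background or not on each array. A gene was tested where it had that rating on all 3 arrays of at least 1 group compared, and it was called changed if its limma p was under 0.01 and its change reached 2-fold. Benjamini-Hochberg adjusted p-values over all genes tested are given beside the calls.

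The arrays lay on 4 slides read on 3 scan days, and this division was not even across the groups. All 6 whole cervix arrays were scanned on day 3, with 1 NP Mφ-depleted array (rat 7) and 1 D21 Mφ-depleted array (rat 4). Scan days 1 and 2 held the 4 depleted arrays left, on which 60.2% to 61.7% of probes were well above background, against 44.9% and 51.0% on the depleted arrays of day 3. Of the Mφ marker list, 9 of 11 tested genes were higher in whole than in depleted cervix of NP rats and 11 of 13 in D21 rats. Cd68, which encodes the antigen of the ED1 antibody, was not called, at 0.54 in NP (adjusted p = 0.530) and -0.15 in D21 rats (adjusted p = 0.882). Markers of other cells moved too. The mean level of 10 smooth muscle markers was 4.61 to 5.00 in NP whole cervix, 3.87 to 4.24 in D21 whole, 0.30 to 0.74 in NP Mφ-depleted and 1.31 to 2.50 in D21 Mφ-depleted cervix. That of 10 fibroblast markers was 3.80 to 3.96, 3.74 to 4.13, -0.95 to 0.18 and 2.02 to 2.89 in the same order. That of 10 epithelial markers was 3.12 to 3.40, 4.17 to 4.63, 4.59 to 5.25 and 5.23 to 5.40. Of 8 housekeeping genes 0 were called in any comparison. Of 10 endothelial markers 0 were called between the whole groups, and in D21 rats 4 were higher in whole than in depleted cervix. Of 9 endothelial markers tested for depletion in NP rats, 3 were higher in whole cervix and 1 was lower. Between the depleted groups 1 of 9 was higher and 1 lower in D21 rats. In dispersed tissue, fewer cells of a type and less RNA per cell cannot be told apart.

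**Figure D1:**
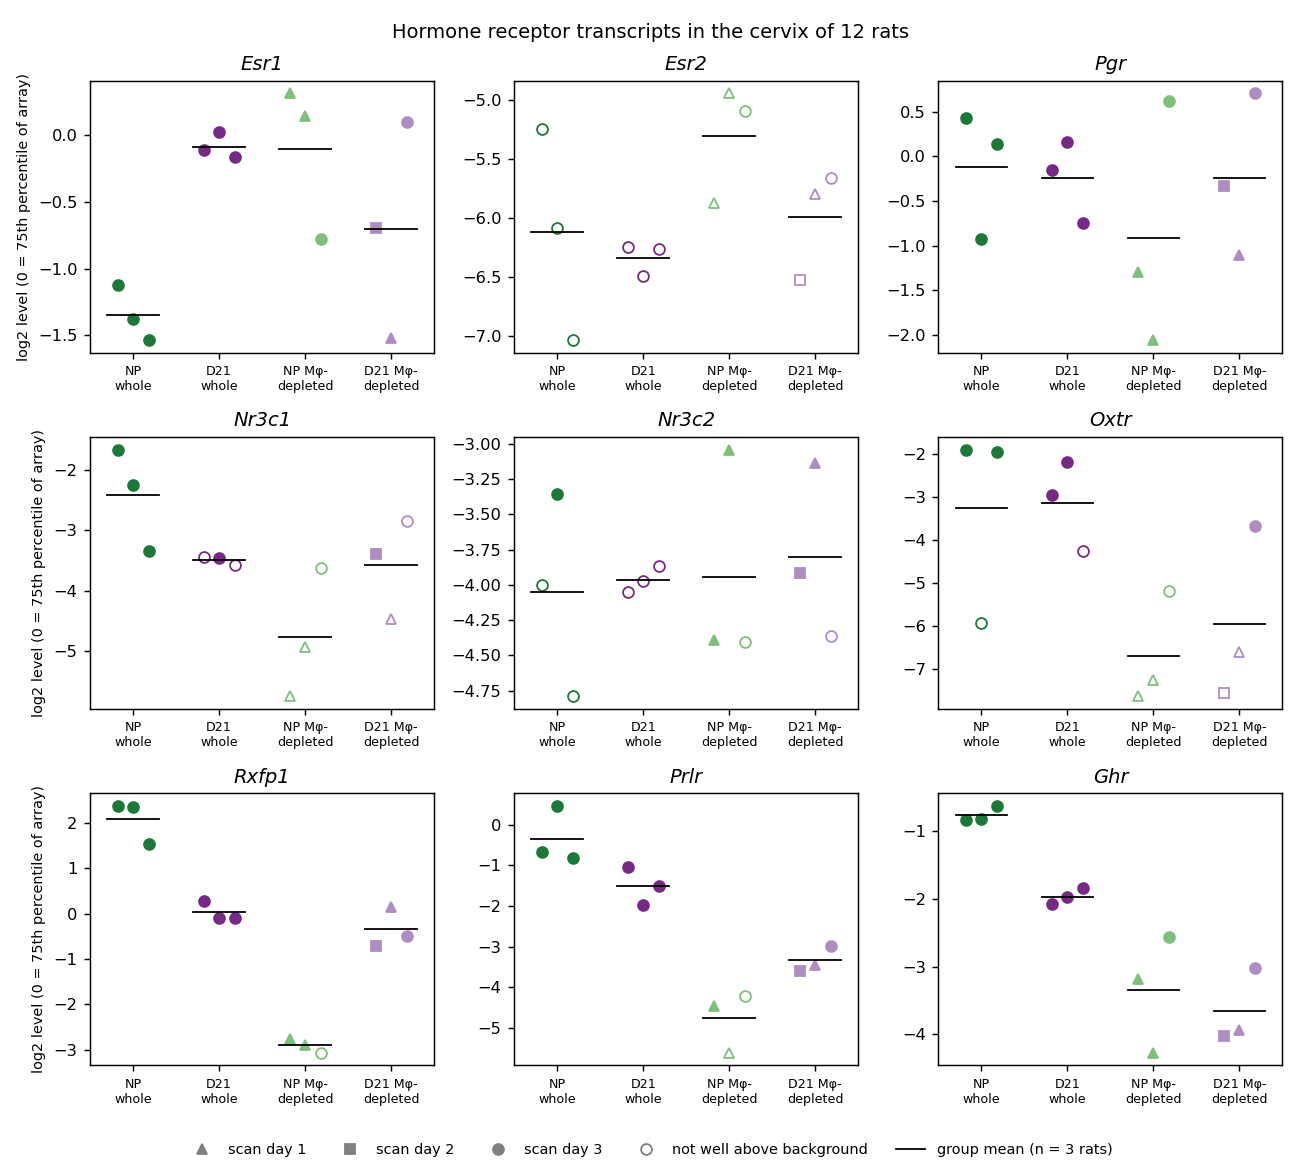
Level of each receptor transcript by rat, as log2 intensity above the array's 75th percentile (vertical axis, a scale of its own for each gene), in the 4 groups of 3 rats; filled points were well above background, the shape gives the scan day and the line the group mean. Rxfp1 ran from -3.07 to 2.38, with NP whole cervix highest and NP Mφ-depleted cervix lowest, and no array reached that rating for Esr2.

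Rxfp1, the relaxin receptor, gave the widest contrast between NP whole and NP Mφ-depleted cervix among the 6 receptors that could be tested. Its level was 2.38, 2.36 and 1.53 in the NP whole cervix of rats 8, 9 and 10, and 0.28, -0.09 and -0.09 in the D21 whole cervix of rats 5, 6 and 7. In Mφ-depleted cervix it was -2.77, -2.89 and -3.07 in NP rats 5, 6 and 7, and -0.70, 0.15 and -0.49 in D21 rats 1, 2 and 4. The order was NP whole, then D21 whole and D21 Mφ-depleted cervix, whose ranges overlapped, and then NP Mφ-depleted cervix, where rat 7 was not well above background. The group means were 2.09 ± 0.49, 0.03 ± 0.22, -0.35 ± 0.45 and -2.91 ± 0.15 in that order (SD, n = 3).

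In whole cervix, Rxfp1 was 4.15-fold lower in D21 than in NP rats (log2 change -2.05, SE 0.30, adjusted p = 0.00553). In NP rats it was 31.9-fold higher in whole cervix than after Mφ depletion (log2 change 4.99, SE 0.30, adjusted p = 1.69e-06), with 2 of 3 depleted arrays well above background. In D21 rats the same contrast was 0.38 (95% confidence interval -0.28 to 1.04, adjusted p = 0.368), so no change was called, though the interval reaches a 2-fold excess in whole cervix. The contrast with depletion differed between the 2 states by -4.61 (SE 0.43, adjusted p = 0.00173). Between the Mφ-depleted groups, Rxfp1 was 5.90-fold higher in D21 than in NP rats (log2 change 2.56, SE 0.30, adjusted p = 8.91e-04), the opposite sign to that in whole cervix. It met the filter there through D21 depleted cervix alone, and for depletion in NP rats through NP whole cervix alone, the groups where it was high. With detection required on every array, Rxfp1 could not be tested in either comparison or for the difference between states.

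The stromal marker lists moved with Rxfp1 in depletion. In NP rats all 10 smooth muscle and 9 of 10 fibroblast markers were higher in whole cervix, with median log2 changes of 4.50 and 4.15, and in D21 rats the medians were 1.96 and 0.94. The Mφ list had medians of 5.13 in NP and 5.04 in D21 rats, so the NP contrast alone does not set the stromal lists apart from it. The median difference between states in the contrast with depletion was -2.25 for smooth muscle and -2.71 for fibroblast markers, with 5 and 6 of 10 genes called. Between the whole groups, where Rxfp1 fell by 2.05 on the log2 scale, the medians were -0.83 for smooth muscle, with 3 of 10 called lower, and -0.10 for fibroblast markers, with 0 called lower and 1 higher. The part of these cells in the Rxfp1 values was not tested. On scan day 3 alone the contrasts were 5.15 for whole over depleted cervix in NP rats and 2.58 for D21 over NP depleted cervix, each with 1 depleted array a state. On the single slide that held both whole groups, the D21 level was 1.49 below that of NP rat 10 on the log2 scale.

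**Figure D2:**
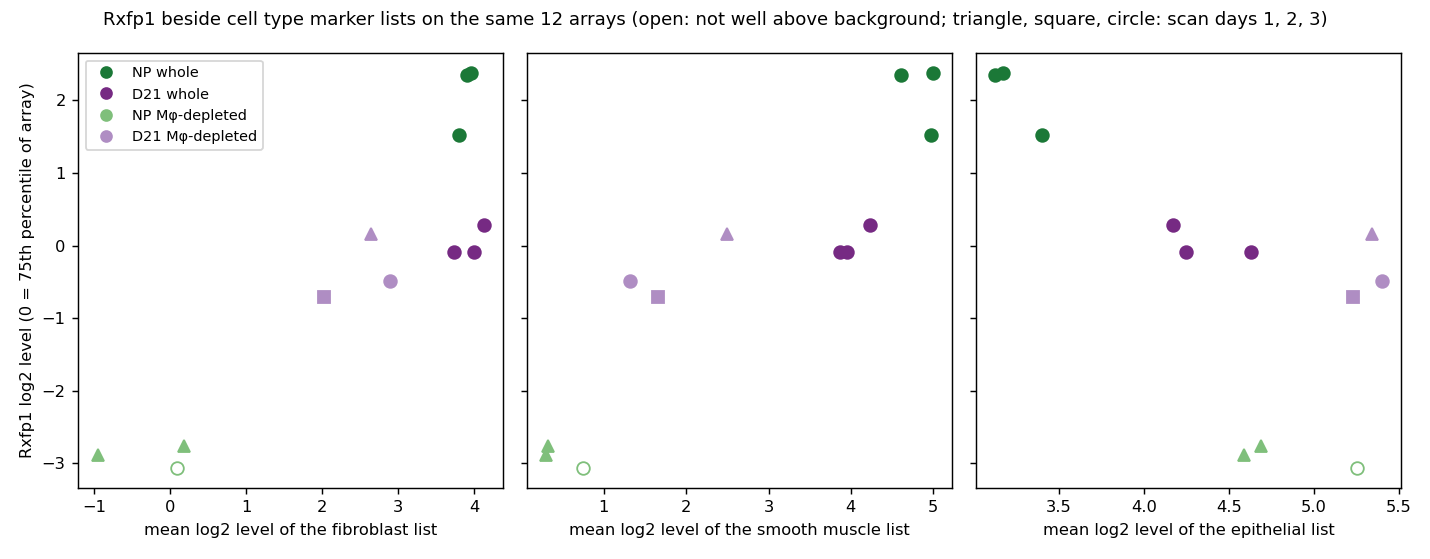
Rxfp1 level (vertical axis, log2 above the array's 75th percentile) against the mean log2 level of the fibroblast, smooth muscle and epithelial marker lists on the same 12 arrays, coloured by group. NP Mφ-depleted arrays are lowest in Rxfp1 and in both stromal lists, and the whole groups overlap in the fibroblast list, at 3.74 to 4.13, but not in Rxfp1.

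Prlr, the prolactin receptor, was also higher in whole cervix than after Mφ depletion in NP rats. Its level was -0.66, 0.47 and -0.82 in NP whole and -1.03, -1.97 and -1.51 in D21 whole cervix. It was -4.46, -5.61 and -4.22 in NP Mφ-depleted cervix, where only rat 5 was well above background, and -3.59, -3.45 and -2.99 in D21 Mφ-depleted cervix. NP whole, D21 whole and D21 depleted cervix followed each other with no overlap. The place of NP depleted cervix below them was not measured, since the dimmest well-measured signal on the array of rat 7 stood at -2.93, above the D21 depleted values. The measured means were -0.34 ± 0.70, -1.50 ± 0.47, -3.34 ± 0.32 and, in NP depleted cervix, -4.76 ± 0.74 (SD, n = 3).

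The whole over depleted contrast of Prlr was fitted at 4.43 in NP rats (SE 0.44, adjusted p = 2.94e-05) and at 1.84 in D21 rats (SE 0.44, adjusted p = 0.0162). With every dim value raised to the lowest well-measured signal of its array, the NP contrast was 3.80 (adjusted p = 2.82e-04). The difference between the contrasts was fitted at -2.59 (SE 0.62), or -1.96 with dim values so raised, and did not pass after adjustment (adjusted p = 0.0575 and 0.194; 0.0265 to 0.367 over the alternatives). Between the depleted groups the fitted D21 minus NP difference of Prlr was 1.42 (unadjusted p = 0.00734, adjusted p = 0.0968), with 1 of 3 NP arrays well above background. With dim values raised to the floor of their array it was 0.79 and not called (adjusted p = 0.382; 0.0511 to 0.650 over the alternatives). The call was also lost on leaving out each of NP rats 5 and 6 and D21 rats 1, 2 and 4, with log2 changes of 1.00 to 1.57. In whole cervix the D21 minus NP difference was -1.17 (95% confidence interval -2.13 to -0.20, adjusted p = 0.145) and was not called, although the 3 rats of one group lay apart from the 3 of the other. The D21 contrast with depletion was not called with normexp background correction (0.57, adjusted p = 0.643) or with slide (2.11, adjusted p = 0.436) or scan day (1.38, adjusted p = 0.153) as a block, against 0.00899 to 0.643 over all alternatives.

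Ghr, the growth hormone receptor, was read well above background on all 12 arrays by its upstream probe. The level there was -0.83, -0.83 and -0.63 in NP whole, -2.07, -1.98 and -1.85 in D21 whole, -3.18, -4.27 and -2.57 in NP Mφ-depleted and -4.02, -3.93 and -3.02 in D21 Mφ-depleted cervix. The whole groups stood apart from each other and from both depleted groups, while the depleted groups overlapped. The means were -0.76 ± 0.12, -1.97 ± 0.11, -3.34 ± 0.86 and -3.66 ± 0.55 (SD, n = 3). Whole exceeded Mφ-depleted cervix by 2.58 in NP rats (SE 0.40, 5.96-fold, adjusted p = 5.48e-04) and by 1.69 in D21 rats (SE 0.40, 3.22-fold, adjusted p = 0.0155). The D21 value was 0.54 with normexp correction (adjusted p = 0.657), 0.78 with slide (adjusted p = 0.713) and 0.98 with scan day as a block (adjusted p = 0.127), none of them a call, where the alternatives ran from 0.00115 to 0.713. In whole cervix Ghr was 2.30-fold lower in D21 rats (log2 change -1.20, SE 0.40), just short of the threshold (unadjusted p = 0.0110, adjusted p = 0.0986). It passed in 7 of 22 alternatives, among them the fit of the 6 whole arrays alone (adjusted p = 0.0110). The range of adjusted p over the alternatives was 0.00162 to 0.720.

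**Figure D3:**
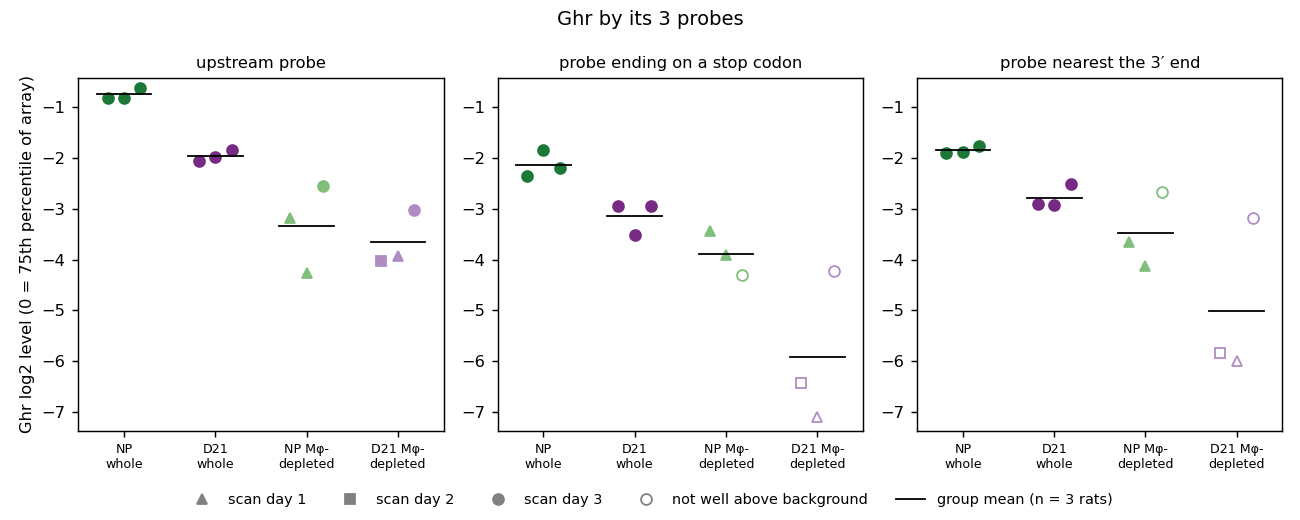
Level of Ghr by each of its 3 probes (vertical axis, log2 above the array's 75th percentile, same scale in all panels) in the 4 groups of 3 rats, with open points where the probe was not well above background. NP whole cervix has the highest and D21 whole cervix the next group mean by each probe, and all 3 D21 Mφ-depleted points are open for the 2 probes toward the 3′ end.

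The other Ghr probes lie toward the 3′ end of the gene on rn4, 1 of them the probe printed above that ends on a stop codon. Both were well above background on 8 of 12 arrays and on none of the D21 Mφ-depleted arrays, where the upstream probe was rated well above background on all 3. In D21 rats the fitted excess of whole cervix was 2.77 by the probe with the stop codon (adjusted p = 0.00894). By the last probe it was 2.22 (adjusted p = 0.0297). As the depleted values were dim, these probes bound the excess at 2.91-fold or more and 3.29-fold or more. Such a bound sets the mean of the bright group against the higher of the dim probe and the dimmest well-measured signal on each array. The bound has no test of its own, and an adjusted p given with one is that of the fitted change. In NP rats the contrasts were 1.75 (adjusted p = 0.0397) and 1.62 (adjusted p = 0.0691) where the upstream probe gave 2.58. The fitted difference of the contrast between states was -0.89 by the upstream probe and 1.03 and 0.60 by the others, and none passed (adjusted p = 0.417 by genes, 0.515 and 0.741 by probes).

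Esr1, the main estrogen receptor of the reproductive tract, rose in D21 whole cervix, where Rxfp1 fell, and was lower in whole than in depleted cervix of NP rats, where Rxfp1, Prlr and Ghr were higher. Its level was -1.12, -1.38 and -1.54 in NP whole and -0.11, 0.02 and -0.17 in D21 whole cervix. In Mφ-depleted cervix it was 0.32, 0.14 and -0.78 in NP and -0.69, -1.52 and 0.10 in D21 rats. The NP whole arrays were below every array of D21 whole and of NP depleted cervix, and the D21 depleted arrays reached from the level of one whole group to that of the other. The means were -1.35 ± 0.21 and -0.08 ± 0.10 in NP and D21 whole cervix and -0.11 ± 0.59 and -0.70 ± 0.81 in NP and D21 depleted cervix (SD, n = 3).

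In whole cervix Esr1 was 2.40-fold higher in D21 than in NP rats (log2 change 1.26, SE 0.39, unadjusted p = 0.00808, adjusted p = 0.0837). This call held in 9 of 22 alternatives, among them the fit of the 6 whole arrays alone (adjusted p = 0.0119). It was lost on leaving out any 1 of the 6 rats, NP rats 8, 9 and 10 or D21 rats 5, 6 and 7. The log2 changes then ran from 1.17 to 1.37 and adjusted p from 0.140 to 0.230. The call was also lost with slide (1.45, adjusted p = 0.343) or scan day (1.26, adjusted p = 0.0888) as a block, in a range of 0.00109 to 0.343 over the alternatives. All 6 whole arrays were scanned on day 3, so the scan day block could not move this change and altered only the estimate of its spread. In NP rats Esr1 was 2.36-fold lower in whole cervix than after Mφ depletion (log2 change -1.24, SE 0.39, adjusted p = 0.0315). That call was lost without NP Mφ-depleted rat 5 (-1.03) or 6 (-1.12) and without NP whole rat 8 (-1.35), 9 (-1.23) or 10 (-1.15). With slide as a block the change was -1.23 (adjusted p = 0.187) and with scan day so used -1.32 (adjusted p = 0.0993), neither of them a call. It was -0.57 on scan day 3 alone (adjusted p = 0.118, in a range of 0.00219 to 0.187 over the alternatives). In D21 rats the contrast was 0.62 (adjusted p = 0.264). It was -0.18 on scan day 3 alone, and 1.02 and called without the depleted arrays of that day (adjusted p = 0.0144; 0.0144 to 0.810 over the alternatives). The difference between states was 1.86 (SE 0.56, adjusted p = 0.110), and without D21 Mφ-depleted rat 4 it was 2.26 and passed (adjusted p = 0.0143; 0.00565 to 0.734 over the alternatives).

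Epithelial markers moved with Esr1 in 2 comparisons, and had the opposite sign for depletion in D21 rats and between the depleted groups. In whole cervix 7 of 10 were called higher in D21 rats (median log2 change 1.57), and in NP rats 6 of 10 were lower in whole than in depleted cervix (median -1.28). In D21 rats 4 of 10 were lower in whole than in depleted cervix (median -0.69), where the contrast of Esr1 was 0.62 (adjusted p = 0.264). In the depleted groups the median of the epithelial markers was 0.62 higher in D21 rats, where the change of Esr1 was -0.60 (adjusted p = 0.387). Without the depleted arrays of scan day 3 that change was -1.34 and was called (adjusted p = 0.0143), and on that day alone it was 0.88, in a range of 0.0143 to 0.803 over the alternatives. The share of epithelial cells in the Esr1 values was not tested.

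Pgr, the progesterone receptor and a known target of estrogen receptor, was detected on each of the 12 arrays and was called in no comparison with all arrays in the fit. It stood at 0.43, -0.93 and 0.14 in NP whole, -0.15, 0.16 and -0.75 in D21 whole, -1.30, -2.06 and 0.62 in NP Mφ-depleted and -0.33, -1.11 and 0.71 in D21 Mφ-depleted cervix. Both depleted arrays of scan day 3, NP rat 7 and D21 rat 4, were the highest of their groups. The D21 minus NP difference in whole cervix was -0.13, with a 95% confidence interval of -1.58 to 1.33 (adjusted p = 0.934), which holds 2-fold changes in either direction. The contrast with depletion was 0.79 in NP rats (-0.66 to 2.25, adjusted p = 0.384) and -0.00087 in D21 rats (-1.46 to 1.45, adjusted p = 1.00), and neither was called. Without both depleted arrays of scan day 3 the NP contrast was 1.56 and was called (adjusted p = 0.0290), and on that day alone it was -0.74, in a range of adjusted p from 0.0290 to 0.836 over the alternatives.

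Nr3c1, the glucocorticoid receptor, lay near the detection limit on most arrays. By its brighter probe it was well above background on all 3 NP whole arrays, at -1.67, -2.26 and -3.34, on 1 of 3 D21 whole arrays (-3.44, -3.45 and -3.57, of which the second was detected), on 1 of 3 D21 depleted arrays and on none of the NP depleted arrays. The fitted contrast of whole over depleted cervix in NP rats was 2.34 (adjusted p = 0.00922), from depleted values that were all dim. The bound, which has no test, was at least 3.92-fold. This contrast missed the unadjusted threshold without NP whole rat 8 (1.97, adjusted p = 0.0458), with normexp correction (0.83) and with scan day as a block (1.23). The D21 minus NP difference in whole cervix was -1.07 (95% confidence interval -2.33 to 0.19, adjusted p = 0.297) and 0.10 with normexp correction. The second Nr3c1 probe was well above background on 4 of 12 arrays, 2 of them D21 whole, and was not tested. Its values were -4.01, -3.93 and -4.28 in D21 whole and -5.11, -4.54 and -4.68 in NP whole cervix. That order is opposite to the one by the brighter probe, but of the NP whole arrays only that of rat 10 was well above background. The mean by this probe was -4.78 in NP whole and -5.46 in NP depleted cervix, mostly from dim values.

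With all arrays in the fit, the remaining receptors did not meet the filter for a test in any comparison. Oxtr was read on 2 of 3 NP whole arrays (-1.89 and -1.96, with rat 9 at -5.91 not well above background), on 2 of 3 D21 whole arrays (-2.95 and -2.18, with rat 7 at -4.25 not well above background), on 1 D21 Mφ-depleted array (-3.67, rat 4) and on no NP Mφ-depleted array. Over all 3 arrays the whole groups overlapped. NP whole and NP depleted cervix overlapped too, as rat 9 lay within the depleted values of -7.63 to -5.18. Over all 3 rats Oxtr was at least 2.24-fold higher in NP whole than in NP depleted cervix, with no test. Without rat 9 that bound was 5.63-fold, so its size rests on that rat. Leaving out rat 9 also let Oxtr meet the filter, through NP whole cervix alone. The call that Oxtr then gave followed from the choice of rat and is not used as a test. Nr3c2, the mineralocorticoid receptor, was read on 5 of 12 arrays by its brighter probe, 4 of them Mφ-depleted and 1 NP whole, within levels of -4.39 to -3.04, and by the other probe on 1 array. Esr2, the second estrogen receptor, did not reach the rating of well above background on a single array, with levels from -7.03 to -4.95. For these genes the arrays give no more than a bound.

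**Figure D4:**
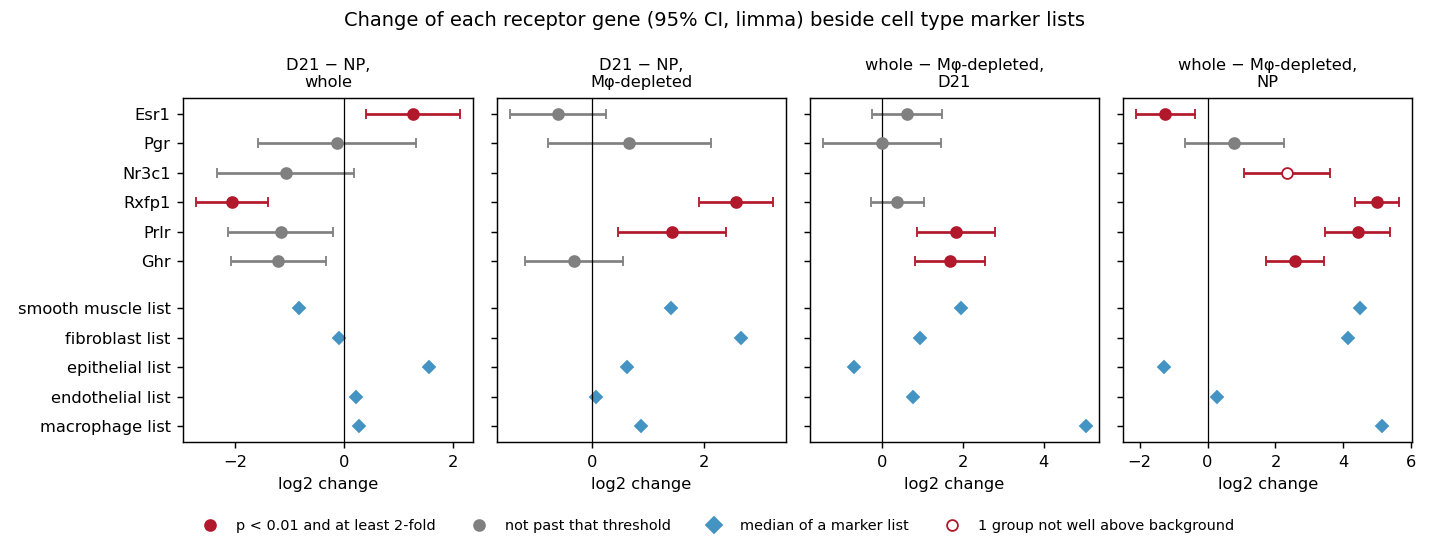
Log2 change (horizontal axis) of the 6 testable receptor genes in 4 comparisons, with 95% confidence intervals from limma, above the median log2 change of 5 marker lists (diamonds); red points passed p below 0.01 with a 2-fold change, and an open point is a fitted value with 1 group not well above background. For whole minus Mφ-depleted cervix in NP rats, Rxfp1 (4.99) and Prlr (4.43) lie near the Mφ (5.13), smooth muscle (4.50) and fibroblast (4.15) medians. The only receptor called higher in D21 whole cervix is Esr1 (1.26).

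Of the 9 receptors, 6 were testable in whole cervix, and 1 rose (Esr1) and 1 fell (Rxfp1) in D21 rats. Of all 14041 genes tested, 8.46% were called there, 5.38% higher and 3.08% lower in D21 rats. The median log2 change over the 6 receptors was -1.12, beside -0.08 over all genes. It lies between Prlr (-1.17) and Nr3c1 (-1.07), neither of them called. Nr3c1 was -0.18 as the mean of its probes. Depletion in D21 rats gave 2 of 5 testable receptors higher in whole cervix (Prlr and Ghr) and 0 lower, where 17.8% of all genes were called, 10.0% higher and 7.72% lower. Depletion in NP rats gave 4 of 6 higher in whole cervix (Nr3c1, Rxfp1, Prlr and Ghr) and 1 lower (Esr1). There 24.3% of all genes were called, 13.6% higher and 10.7% lower. Nr3c1, Rxfp1 and Prlr met the filter through NP whole cervix alone, the group where they were high. With detection required on every array 3 receptors were testable, of which Ghr was called higher and Esr1 lower. Between the depleted groups 2 of 5 receptors, Rxfp1 and Prlr, were called higher in D21 rats, and 0 were lower. Prlr was not called once dim values were raised to the floor. Of all genes 7.50% were called there, 5.44% higher and 2.06% lower. Both receptors met the filter through D21 depleted cervix alone. With detection required on every array 0 of 3 testable receptors were called. At an adjusted p below 0.05 the difference of the depletion contrasts was called for 1 of 6 (Rxfp1), against 2.39% of all genes (0.433% higher and 1.96% lower). The groups did not overlap for 5 of 6 receptors between the whole groups (44.2% of all genes) and 2 of 5 for depletion in D21 rats (44.4%). For depletion in NP rats it was 5 of 6 (46.9%), and between the depleted groups 2 of 5 (17.0%). These counts take in values that were not well above background. Prlr is counted between the depleted groups, where its order was not measured. Nr3c1 is counted by its brighter probe alone, with 1 of 3 D21 whole and 0 NP depleted arrays well above background. The comparisons share arrays, so their counts are not independent.

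Genes around these receptors were counted from lists put together with earlier results of the same arrays known. Of all genes tested, 5.38% were called higher and 3.08% lower in D21 whole cervix. In whole over depleted cervix the shares were 13.6% and 10.7% in NP rats and 10.0% and 7.72% in D21 rats. Between the depleted groups they were 5.44% and 2.06%. A list count near these shares is no result about that list. Of 10 peptide ligands on the array, 2 were testable in whole cervix and 0 changed. Oxt, the oxytocin gene, differed by 3.32 between D21 and NP whole cervix (adjusted p = 0.154). Prl and Gh1 were well above background on 0 arrays, and Rln1, a relaxin gene, on 1 array, of D21 whole cervix. Ucn2, a peptide of the corticotropin-releasing hormone family, was at least 14.5-fold lower in whole than in depleted cervix of D21 rats (adjusted p of the fitted change = 5.54e-04). The same contrast was -3.46 in NP rats (adjusted p = 4.03e-04). Among related receptors, Rxfp2, the receptor for the relaxin-like Insl3, was at least 2.02-fold higher in whole than in depleted cervix of NP rats (adjusted p of the fitted change = 0.00495). Its D21 minus NP change in whole cervix was -0.21 (adjusted p = 0.887). Avpr1a, a vasopressin receptor, was lower in D21 than in NP depleted cervix (-1.31, adjusted p = 0.0666).

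Of other nuclear receptors, 18 of 28 were testable in whole cervix, where 0 fell in D21 rats. Those that rose included Vdr, the vitamin D receptor (log2 change 2.21, adjusted p = 0.0254, with 1 of 3 NP arrays well above background), and Rara, a retinoic acid receptor (1.06, adjusted p = 0.0246). In NP rats 3 of 19 were higher in whole than in depleted cervix, namely Rxrg, Nr2f1 and Nr2f2, and 2 were lower, Vdr (-2.85) and Rxra (-2.64). In D21 rats 1 of 18 was higher (Nr1d2, 1.59) and 3 were lower (Rxra, Rarg and Rxrb, -1.84 to -1.16). Between the depleted groups Nr2f2 (1.71) and Rxrg (at least 1.40-fold) were higher in D21 rats and Nr0b2 (-2.67, adjusted p = 0.111) was lower. The depletion contrast differed between states for Rxrg (-2.96, adjusted p = 0.0384) and Vdr (2.98, adjusted p = 0.0480), 2 of 19 tested. Of the membrane steroid receptors, Paqr5, a progestin receptor of the cell surface, rose by 1.50 in D21 whole cervix (adjusted p = 0.0218), 1 of 5 tested. It was lower in whole than in depleted cervix of NP rats (-2.23, adjusted p = 2.97e-04). Pgrmc1, a progesterone-binding membrane protein, was 1.55 higher in whole than in depleted cervix of D21 rats (adjusted p = 0.00354), 1 of 6 tested.

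Genes known to respond to glucocorticoid or mineralocorticoid gave 4 rises and 0 falls among 14 tested in D21 whole cervix (median 0.17). They were Angptl4, a lipase inhibitor (2.78, adjusted p = 0.00941), Scnn1a, a subunit of the epithelial sodium channel (2.35, adjusted p = 0.00393), Dusp1, a phosphatase of MAP kinases (1.66, adjusted p = 0.0243), and the cell cycle inhibitor Cdkn1a (1.46, adjusted p = 0.0243). In NP rats 5 of 14 were lower in whole than in depleted cervix, led by Dusp1 (-3.45), Cdkn1a (-1.86) and Nfkbia (-1.65), and in D21 rats 4 were lower, led by Nfkbia (-2.46), Dusp1 (-1.79) and Errfi1 (-1.65). Dusp1 also belongs to the immediate-early list, of which 8 of 9 tested genes were lower in whole than in depleted cervix in either state (medians -2.79 and -2.48). The part of cell handling in these values was not tested. Of the chaperones that hold steroid receptors, 0 of 10 changed between the whole groups, and Hsp90ab1, a cytosolic Hsp90 chaperone, was lower in whole than in depleted cervix, with log2 changes of -1.25 in NP and -1.07 in D21 rats. Fkbp5, a glucocorticoid-induced co-chaperone, was 1.79 higher in D21 than in NP depleted cervix (adjusted p = 0.0642), and so was Scnn1a, of the target list, by 1.03 (adjusted p = 0.0785).

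Genes reported to respond to estrogen or progesterone in the reproductive tract gave 1 rise and 2 falls among 14 tested in whole cervix. Hoxa11 (-2.56, adjusted p = 0.0167) and Hoxa10 (-1.88, adjusted p = 0.0118), homeobox factors of the uterus and cervix, fell, and Wnt4, a secreted signal, rose by 1.25 (adjusted p = 0.0596). In NP rats 5 of 14 were higher in whole than in depleted cervix, led by Il13ra2 (6.59), Igf1 (5.76) and Hoxa11 (5.53), and Areg (-3.27) and Wnt4 (-2.29) were lower. In D21 rats 1 was higher, Hoxa10 (1.59), and 4 were lower, led by Areg (-1.97), Bmp2 (-1.88) and Errfi1 (-1.65). The contrast with depletion differed between states for 3 of 14, Igf1 (-4.66, adjusted p = 0.0251), Hoxa11 (-4.57, adjusted p = 0.00977) and Hoxa10 (-3.07, adjusted p = 0.00994). All had the sign that Rxfp1 had, as did most genes called in this test, 285 of 348. Of all genes tested 2.39% were called, 1.96% with that sign and 0.433% with the other. Between the depleted groups 5 of 14 were higher in D21 rats, led by Il13ra2 (4.53), Igf1 (3.95) and Bmp2 (2.29).

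Downstream of Prlr and Ghr, 2 of 14 genes tested rose in D21 whole cervix, Cish, an inhibitor of cytokine signalling (1.67, adjusted p = 0.0801), and Igfbp5, a binding protein of insulin-like growth factors (1.30, adjusted p = 0.0602). Neither passed after adjustment. Igf1, Igfbp5 (3.19) and Socs2 (2.69, adjusted p = 2.04e-05), a growth hormone-induced inhibitor, led the 4 genes higher in whole than in depleted cervix of NP rats, and Cish (-2.23) and Socs3 (-1.77) were lower. In D21 rats Igfbp5 (1.48), Jak1 (1.33) and Socs2 (1.18) were higher in whole cervix, 3 of 14 tested. Between the depleted groups Igf1, Igfbp5 (3.01) and Socs2 (1.80) were higher in D21 rats, 3 of 13 tested. Among genes that carry signals of Oxtr and Rxfp1, 1 of 20 rose in D21 whole cervix, the calcium release channel Itpr3 (1.95, adjusted p = 0.00418). In D21 rats 6 of 20 were higher in whole than in depleted cervix, led by Plcb4 (at least 6.77-fold, adjusted p of the fitted change = 0.0146), Gnaq (1.95) and Rgs5 (1.88). In NP rats 6 of 18 were higher, led by Rgs5 (4.10), Rgs2 (2.06) and Rgs4 (2.03), while Itpr3 (-2.05), Plcb3 (-1.56) and Itpr2 (-1.36) were lower. The depletion contrast of Itpr3 differed between states by 2.47 (adjusted p = 0.00796). Rgs5 (1.32), Cav1 (1.20) and Rgs4 (1.19) were higher in D21 than in NP depleted cervix. Of the coregulators, Prmt1, an arginine methyltransferase, fell in D21 whole cervix (-1.58, adjusted p = 0.0559), and 4 of 14 were lower in whole than in depleted cervix of NP rats, led by Nrip1 (-1.51), Crebbp (-1.27) and Pelp1 (-1.15). In D21 rats 2 of 15 were lower, Ppargc1b (-2.30) and Nrip1 (-1.38).

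For each receptor read well above background on at least 6 arrays, the genes of most similar pattern were found among 9287 genes, as the smallest root mean square difference of log2 values over the 12 arrays once each gene was set to its own mean. Nearest to Rxfp1 were Wt1 (0.37), Gpx8 (0.43) and Osr2 (0.45), against an SD of 1.88 for Rxfp1 itself. Nearest to Prlr were Fap (0.44), Mrgprf (0.47) and Gal3st4 (0.48), where Prlr had an SD of 1.84. Ghr lay nearest to Akr1b1 (0.25), Got1 (0.31) and Acyp2 (0.33), Esr1 to Amotl2 (0.23), Gtf2ird1 (0.30) and Stxbp2 (0.30), and Pgr to Vom2r35 (0.31), Rps6ka2 (0.36) and Fkbp1b (0.39). These arrays share groups and scan days, so the distances describe the 12 arrays alone.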

How the data were processed

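Cells dispersed from the cervix of 12 rats were hybridised to 1-colour Agilent arrays, 1 rat to an array, with group and rat number as labelled. Spot intensities were deposited in scanner output from Feature Extraction 9.5.3.1, which subtracts background and leaves arrays unscaled against one another. A deposited ratio for each probe, found by comparison with the scanner output to be its intensity over the array's 75th percentile, served as an alternative.

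Outlier-flagged spots (294 to 648 an array) and control spots were left out, spots of a probe were averaged, and log2 intensities were set relative to the log2 75th percentile of the array. Names were taken through RefSeq accessions for 17679 of 30367 probes (58.2%), otherwise from the array files. The probe with the highest mean stood for a gene with several. The 5 comparisons were fitted in limma 3.58.1 (R 4.3.3; lmFit and eBayes) with a mean for each of the 4 groups over all 12 arrays, and p-values were adjusted by Benjamini-Hochberg. The threshold, p below 0.01 with 2-fold change, was that of the study; the difference of the depletion contrast between states used an adjusted p below 0.05. The step was tested on simulated data. Precision is limited by 3 arrays a group. Figures were drawn in Python 3.11.15 with matplotlib 3.10.9.

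The receptors and gene lists were chosen with earlier results of these data known. All 9 receptors were described. For each list and comparison up to 3 called genes in each direction, by size of log2 change, were to be named, and 3 neighbours for each receptor read on at least 6 arrays. A result for 1 gene of these lists is not reported here. Alternatives were the methods' t-test, normexp correction (offset 50), quantile normalization, other percentiles and filters, the mean of all probes, weighting of arrays, a block for slide or for scan day, the deposited ratios and leaving out each rat. Fits to scan day 3 alone, without the depleted arrays of that day, and with values not well above background raised to the dimmest well-measured signal of their array, were added after seeing the data.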

Additional observations from a re-analysis of the deposited data

Results flagged for a closer look

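The contrast of whole with Mφ-depleted cervix differed between D21 and NP rats for Rxfp1 by -4.61 on the log2 scale (limma interaction, adjusted p = 0.00173). In the fit reported here, no other receptor passed this test across all genes. The array of NP Mφ-depleted rat 7 was not well above background for Rxfp1, so the test could not be made with detection required on every array. Whole exceeded depleted cervix by 4.99 in NP and 0.38 in D21 rats. The value was -4.63 on scan day 3 alone (adjusted p = 0.0478) and -4.61 without the depleted arrays of that day (adjusted p = 0.00225). It drew attention because the same contrast, measured in both states, differed by a test of the difference itself. Groups of 3 rats are too small for a test of single rats.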

How the results depend on the processing

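The counts of called receptors, 2 between the whole groups, 2 for depletion in D21 rats, 5 for depletion in NP rats, 2 between the depleted groups and 1 for the difference of the depletion contrasts, changed as follows, and the cause was not tested. Between the whole groups the count was 0 for the methods' t-test with Benjamini-Hochberg adjustment and 1 at an adjusted p below 0.05, with normexp correction, with a percentile taken over probes that all arrays detected, without a filter on background, with slide as a block, and on leaving out each of the 6 rats (1 to 1). It was 3, with Ghr added, for the unadjusted t-test, in a fit of those arrays alone, with quantile normalization, with detection required on every array, with array weights and on scan day 3 alone. With scan day as a block it was 2, Rxfp1 and Ghr without Esr1. For depletion in D21 rats it was 1 for the methods' t-test and on scan day 3 alone, and 0 for that t-test after adjustment, with normexp and with slide or scan day as a block; leaving out each rat gave 2 to 2, and leaving out the depleted arrays of scan day 3 gave 3, with Esr1 added. For depletion in NP rats it was 2 for the methods' t-test, adjusted or not, and with detection required on every array, 3 with normexp, with scan day as a block and on scan day 3 alone, and 3 to 5 on leaving out each rat, the 3 without NP whole rat 8. Without the depleted arrays of scan day 3 it was 6, with Pgr added. Between the depleted groups it was 0 for the adjusted t-test and with detection required on every array; it was 1 for the unadjusted t-test, at an adjusted p below 0.05, in a fit of those arrays alone, with normexp, with the other percentile, without a filter, with array weights, with slide or scan day as a block on scan day 3 alone and with dim values raised to the floor of the array, and 1 to 2 on leaving out each rat. Without the depleted arrays of scan day 3 it was 2, Esr1 and Rxfp1. For the difference of contrasts it was 3 at an unadjusted p below 0.01 with 2-fold change, 2 with quantile normalization, 0 with detection required on every array, 4 with array weights and also without the depleted arrays of scan day 3, and 1 to 3 on leaving out each rat, the highest without D21 Mφ-depleted rat 4. Both scan day 3 settings and the raised dim values were chosen after seeing the data.

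Values that changed sign were not called with all arrays in the fit. With normexp they were Nr3c1 between whole groups (0.10), Pgr (0.25) and Rxfp1 (-0.037) for depletion in D21 rats, and Ghr between depleted groups (0.55). For depletion in D21 rats Pgr was also 0.19 with the other percentile, 0.12 with array weights, 0.010 from the deposited ratios, 0.48 without the depleted arrays of scan day 3 and -0.43 to 0.48 on leaving out each rat. In NP rats it was -0.73 with slide as a block, -0.60 with scan day so used and -0.74 on scan day 3 alone, and between whole groups -0.53 to 0.15 on leaving out each rat. On scan day 3 alone Esr1 was -0.18 for depletion in D21 rats and 0.88 between depleted groups. Ghr between depleted groups was -0.78 to 0.070 on leaving out each rat, and its difference of contrasts was 0.24 as the mean of its probes. That other percentile moved the median of all genes by 0.188 for depletion in D21 rats and by -0.162 between depleted groups.

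No paired analysis was possible because the groups compared share no rat numbers. Arrays of 3 rats a group and signal over background limit Esr2, Nr3c2 and Oxtr to bounds. In the contrast with depletion, rats, Mφ removal and bead step cannot be separated.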
